A study of Macaca mulatta with 30 samples.

Results

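Transcript levels of the urea cycle enzymes were compared across 5 rhesus macaque (Macaca mulatta) tissues. The members were the genes CPS1, OTC, ASS1, ASL, ARG1, ARG2, NAGS and SLC25A15, taken by symbol from the deposited table of kallisto transcript abundances. Of these 8 genes, 7 are described here among the 21292 genes of the table, and SLC25A15, which encodes a mitochondrial ornithine carrier, was not analysed here. RNA was sequenced from flash-frozen liver, pancreas, parotid gland, submandibular gland and sublingual gland of 6 animals, with 1 library per tissue and animal (n = 6 per tissue, 30 libraries). Per the labels there were 4 females (animals 1 to 4) and 2 males (5 and 6), and no strain, treatment or age is named. The parotid library of animal 3 came from the right gland and the other parotid libraries came from the left. The study set salivary glands against pancreas and pancreas against liver within each animal, and liver is the tissue in which the urea cycle is known to run.

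The urea cycle turns toxic ammonia into urea, which the kidney excretes, and the complete cycle is known mainly from hepatocytes around the portal tracts of the liver. Its mitochondrial steps join ammonia to ornithine to give citrulline, and its cytosolic steps pass through argininosuccinate and arginine and release urea and ornithine. Several of the enzymes also work outside the cycle: ASS1 and ASL make arginine in many cell types, and ARG2, the mitochondrial arginase, is known chiefly from tissues other than liver.

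Levels are given in TPM, the share of each library's total that a gene's transcripts hold after correction for their length, so genes can be compared with each other. Every library sums to the same total and the sequencing depth behind a value is unknown. Differences between tissues are on the scale of log2(TPM + 1), tested with limma across 13550 genes with the animal as a block, and adjusted p-values (Benjamini-Hochberg) below 0.05 were called. The liver comparisons share the same 6 liver libraries. In bulk tissue, fewer cells of a type and less RNA per cell cannot be told apart. On this scale the median of all tested genes was not at 0: it was 0.36 for liver against pancreas, 0.84 against parotid, 0.70 against submandibular and 0.10 against sublingual, and trimmed-mean scaling moved these medians to 0.02, 0.04, 0.01 and -0.01. The same scaling moved the share of calls that were higher in liver from 77.7% to 56.7% against pancreas, from 92.1% to 57.8% against parotid and from 88.8% to 55.0% against submandibular. For glands against pancreas, the share of calls that were higher in the gland moved from 14.2% to 43.8% (parotid), from 23.2% to 49.1% (submandibular) and from 74.8% to 50.9% (sublingual). Against sublingual, the share of calls higher in parotid moved from 2.15% to 38.4% and the share higher in submandibular from 2.69% to 43.2%.

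Most libraries carried the defining genes of their labelled tissue, and several outside liver stood apart. The summed level of 16 hepatocyte markers was 111735 to 177477 TPM in the livers and 584 to 5353 TPM elsewhere. The pancreas library of animal 4 had 4539 TPM of 12 pancreatic acinar markers, where the other pancreas libraries had 204635 to 413254 TPM, and its 6 adipocyte markers summed to 18013 TPM. The submandibular library of animal 4 had 2443 TPM of 10 salivary acinar markers against 263851 to 370560 TPM in the others, with 7840 TPM of adipocyte markers. The parotid library of animal 6 had 102080 TPM of 9 skeletal muscle markers, where the other parotid libraries had at most 7587 TPM. The sublingual libraries of animals 1 and 4 carried genes of stratified squamous epithelium and are described with ARG1. The pancreas library of animal 3 had 132639 TPM of islet markers against 450 to 12707 TPM in the other pancreas libraries. The sublingual library of animal 5 had 27346 TPM of skeletal muscle markers, animal 1 had 9846 TPM and the rest 47.1 to 419 TPM. Leaving out the pancreas library of animal 3 and the sublingual library of animal 5 together changed no count of members called. The part of these libraries in the tissue differences was measured by leaving them out, and the calls that depended on them are named beside the results.

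Of the 7 genes, 6 were far higher in liver than in each of the other tissues, and ARG2 was the exception. CPS1, OTC, ASS1, ASL, ARG1 and NAGS were called higher in liver in all 4 comparisons. NAGS passed the filter on low values only through liver, so its calls are not counted here. Of the 6 genes that passed without the livers, 5 were called higher in each comparison, against 23.6% of all tested genes called higher in liver than in pancreas, 53.4% than in parotid, 45.1% than in submandibular and 18.7% than in sublingual gland. In liver CPS1, OTC, ASS1, ASL, ARG1 and NAGS together held 0.281% ± 0.104 (SD, n = 6) of all TPM.

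**Figure D1:**
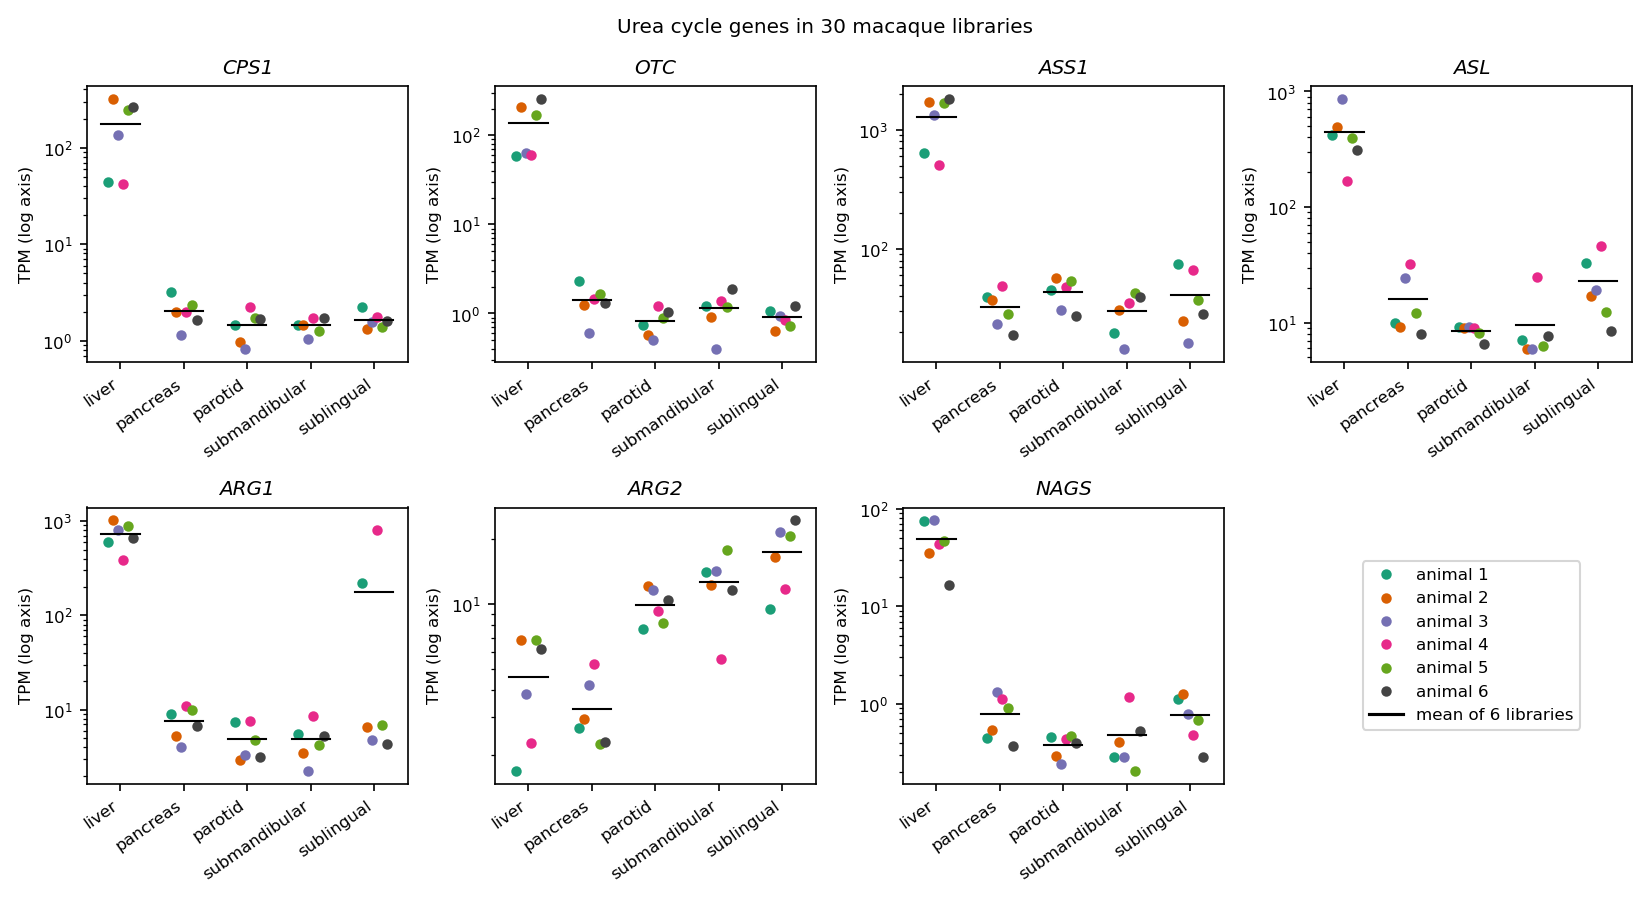
TPM (log axis) of the 7 urea cycle genes in the 30 libraries, by tissue on the horizontal axis; points are libraries coloured by animal and black bars are means of 6. CPS1, OTC, ASS1, ASL, ARG1 and NAGS are highest in liver, apart from ARG1 in the sublingual library of animal 4 (814 TPM), which lies within the liver range, and ARG2 is highest in the glands.

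NAGS makes N-acetylglutamate, the activator without which CPS1 does not work. Its level in liver was 16.7 TPM at the lowest, 45.4 TPM at the median and 76.7 TPM at the highest. Outside liver it stayed at or below 1.33 TPM, with medians of 0.729 TPM in pancreas, 0.419 in parotid, 0.351 in submandibular and 0.737 in sublingual gland. The liver range therefore lay apart from all the others, and NAGS reached 1 TPM in 5 of the 24 libraries outside liver. NAGS passed the filter on low values only through the liver libraries, so it had to differ from the other tissues to be tested at all. The log2 difference was 4.68 to pancreas, 5.02 to parotid, 4.95 to submandibular and 4.69 to sublingual gland (SE 0.259 each), in 6 of 6 animals.

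CPS1, carbamoyl phosphate synthetase, brings ammonia into the cycle. Its liver median was 189 TPM, with animal 4 lowest at 41.9 TPM and animal 2 highest at 322 TPM. The medians elsewhere were 1.98 TPM in pancreas, 1.56 in parotid, 1.45 in submandibular and 1.58 in sublingual gland, and the highest single value outside liver was 3.19 TPM, in the pancreas of animal 1. No liver value overlapped with another tissue. The log2 difference was 5.49 ± 0.375 (SE) to pancreas, with an adjusted p from limma of 2.68e-12, and 5.66 to 5.78 to the glands.

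OTC, the ornithine carbamoyltransferase, condenses carbamoyl phosphate with ornithine to form citrulline. Its liver values were 58.8 TPM at the lowest, 117 TPM at the median and 259 TPM at the highest. Pancreas (median 1.39 TPM), parotid (0.814), submandibular (1.19) and sublingual gland (0.889) stayed at or below 2.32 TPM. All 6 livers were above every other library, and the log2 difference was 5.59 to pancreas (SE 0.293, limma adjusted p = 8.1e-15), 5.98 to parotid, 5.76 to submandibular and 5.92 to sublingual gland. Within liver, OTC was above CPS1 in 2 of 6 animals and the ratio of OTC to CPS1 ran from 0.469 in animal 3 to 1.44 in animal 4.

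ASS1, argininosuccinate synthetase, joins citrulline to aspartate and was the most abundant member in liver. It had 500 TPM at the lowest, 1495 TPM at the median and 1821 TPM at the highest there. Unlike CPS1, OTC and NAGS, it stayed well above 1 TPM in every library. The medians were 33.0 TPM in pancreas, 46.7 in parotid, 33.1 in submandibular and 32.8 in sublingual gland, with 14.4 to 75.4 TPM over all libraries outside liver. The ranges of liver and the other tissues were apart. The log2 difference was 5.14 to pancreas (SE 0.378, limma adjusted p = 1.31e-11), 4.72 to parotid, 5.28 to submandibular and 4.95 to sublingual gland.

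ASL, argininosuccinate lyase, splits argininosuccinate into arginine and fumarate. Its level in liver was 169 TPM at the lowest, 410 TPM at the median and 869 TPM at the highest, the last in animal 3. In pancreas it spanned 7.95 to 32.1 TPM, in parotid 6.56 to 9.23, in submandibular 5.86 to 25.1 and in sublingual gland 8.49 to 45.8 TPM. Liver was again apart from each of them. The highest value in pancreas, submandibular and sublingual gland was in each case that of animal 4, whose library stood apart in all 3 tissues. The log2 difference of liver was 4.73 to pancreas (SE 0.381, limma adjusted p = 9.2e-11), 5.38 to parotid, 5.42 to submandibular and 4.27 to sublingual gland.

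ARG1, the cytosolic arginase, releases urea in the last step. In liver it had 385 TPM at the lowest, 737 TPM at the median and 1028 TPM at the highest. Pancreas (4.02 to 10.8 TPM), parotid (2.94 to 7.55 TPM) and submandibular gland (2.24 to 8.61 TPM) lay far below, and the log2 difference to them was 6.40, 6.97 and 6.97 (SE 0.735 each). This SE comes from the fit of all 30 libraries, sublingual gland included, and is not the spread of each pair. The SD of the differences over the 6 animals was 0.886, 0.951 and 0.994. Sublingual gland overlapped with liver: its median was 6.65 TPM and its highest value 814 TPM. The log2 difference between liver and sublingual gland was 4.73 ± 0.735 (SE), with a limma adjusted p of 9.64e-06, in 5 of 6 animals. An exact sign-flip permutation test over the 6 animals gave a two-sided p of 0.0625 for this pair, where the smallest it can give is 0.03125. Without the sublingual libraries of animals 1 and 4, that log2 difference was 6.62.

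The overlap with liver came from animal 4, and 2 sublingual libraries stood far above the rest. The sublingual gland had 220 TPM of ARG1 in animal 1 and 814 TPM in animal 4, where the remaining 4 animals had 4.34 to 6.80 TPM. In animal 4 the sublingual value was 2.11 times that of the same animal's liver, and in animal 1 it was 0.366 times. The other 22 libraries outside liver held 2.24 to 10.8 TPM. The hepatocyte marker median was 46.2 and 39.2 TPM in these libraries, and 31.0 to 39.7 TPM in the remaining sublingual libraries. Of the 16 markers, 0 were higher in both libraries than in the other 28.

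Genes of stratified squamous epithelium, the layered lining of the mouth and oesophagus, were high in the same 2 libraries. The list of 12 such markers was drawn up after the values were seen, and 10 of them were measured. Animal 1 had a marker median of 1491 TPM and animal 4 one of 3062 TPM, and it was 0.0703 to 19.6 TPM over the remaining 28 libraries. Their sum was 39843 and 115389 TPM, against 6.24 to 604 TPM. All 10 were higher in both libraries than in any of the other 28, and 4 of the 10 were at 0 in at least 1 library. ZG16B, a secretory gland product, was at 31360 and 2016 TPM, where the other 4 sublingual libraries had 143860 to 332616 TPM. Of 9 macrophage and neutrophil markers, 2 were higher in both libraries than in the other 28, and of 10 salivary acinar markers 0 were. The share of all tested genes that were higher in both is not given here. These counts and that of the hepatocyte markers therefore have no background beside them. RHCG, an ammonia channel from the carrier list, was at 210 and 1027 TPM against at most 3.57 TPM. The part of squamous tissue in the ARG1 values was not tested.

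**Figure D2:**
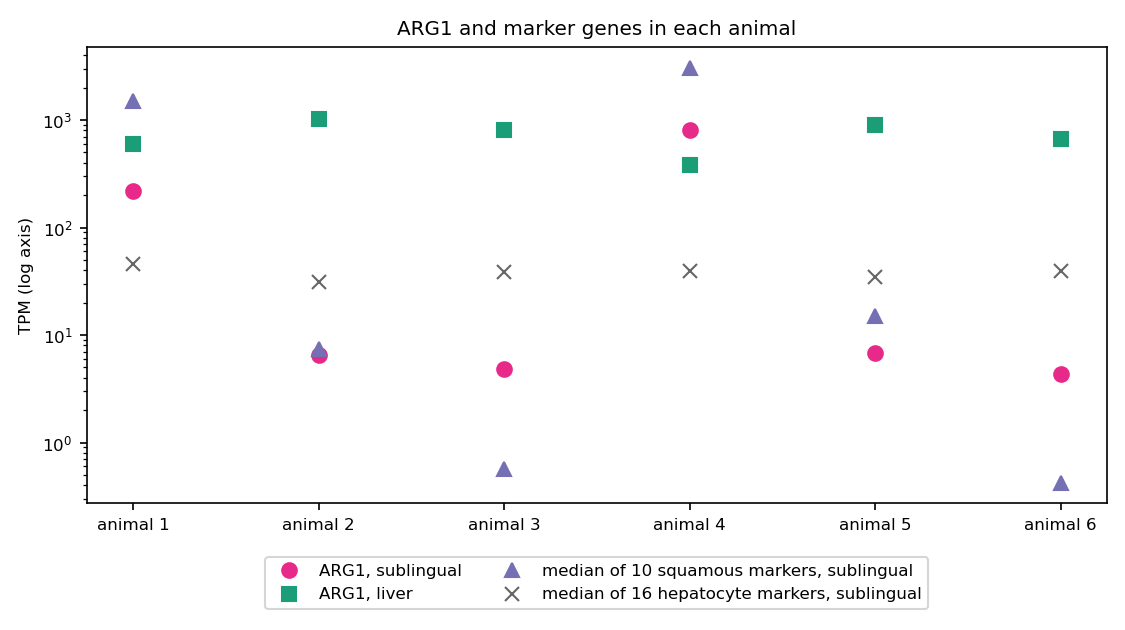
TPM (log axis) by animal: ARG1 in sublingual gland and in liver, and the medians of 10 squamous and 16 hepatocyte markers in sublingual gland. ARG1 and the squamous median are high together in animals 1 and 4 (ARG1 at 220 and 814 TPM), while the hepatocyte median lies between 31.0 and 46.2 TPM in all 6 animals.

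ARG2, the mitochondrial arginase, had the opposite distribution among glands and liver. It was at 1.69, 5.03 and 6.85 TPM (lowest, median, highest) in liver and at 2.24, 2.81 and 5.28 TPM in pancreas. The glands were higher: 7.69, 9.93 and 12.1 TPM in parotid, 5.57, 13.2 and 17.9 TPM in submandibular and 9.52, 18.7 and 24.6 TPM in sublingual gland. Liver and gland ranges were apart for parotid and sublingual gland and overlapped for submandibular gland, through animal 4. The log2 difference of liver was -1.07 to parotid (SE 0.288, limma adjusted p = 0.0031), -1.34 to submandibular (0.000476) and -1.77 to sublingual gland (1.87e-05), with the gland higher in 6 of 6 animals each time. This is 1 of 7 genes called lower in liver, against 4.61% of all tested genes for parotid, 5.68% for submandibular and 12.8% for sublingual gland. For sublingual gland that count is near the share of all genes. Under trimmed-mean scaling 2484, 2844 and 2782 of the 13550 tested genes were called lower in liver. Between liver and pancreas the log2 difference of ARG2 was 0.31, with a 95% interval of -0.28 to 0.91 and a limma adjusted p of 0.44, and liver was higher in 3 of 6 animals. That value changed sign under trimmed-mean scaling, to -0.037.

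Against pancreas, ARG2 was the only member called in any gland. All 6 values of each gland were above all 6 pancreas values. The log2 difference was 1.38 for parotid (limma adjusted p = 0.00135), 1.65 for submandibular (0.000243) and 2.09 for sublingual gland (7.13e-06), with SE 0.288 each and in 6 of 6 animals. This 1 of 7 stands against 2.24%, 2.25% and 10.4% of all tested genes called higher in the respective gland, and is near that share for sublingual gland. Under trimmed-mean scaling 993, 1066 and 1484 of the 13550 tested genes were called higher in the gland.

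The other 6 genes did not pass the test for any gland against pancreas, and the log2 differences were small apart from ARG1 in sublingual gland. They ran from -0.66 (ASL) to 0.42 (ASS1) for parotid and from -0.69 (ASL) to -0.13 (ASS1) for submandibular gland. The median of all tested genes was -0.48 for parotid and -0.33 for submandibular gland on this scale, and under trimmed-mean scaling ASL was at -0.02 and -0.21. Without animal 4, the submandibular difference of ASL was called, at -0.76 with a limma adjusted p of 0.0437. For ARG1 the sublingual difference was 1.67 (95% interval 0.16 to 3.18, limma adjusted p = 0.143), and it became -0.21 without the sublingual libraries of animals 1 and 4. In parotid and submandibular gland ARG1 was at -0.57 each, with the gland higher in 0 of 6 animals. The SD of these differences was 0.301 and 0.278, but their SE of 0.735 is shared with the sublingual libraries. Trimmed-mean scaling put them at -0.005 and -0.13. Low expressed members are compressed by the added 1 TPM, which bears most on OTC and NAGS here.

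Among the glands, parotid and submandibular gland did not differ in any member by this test (0 of 7 genes, against 0.347% of all tested genes called in either direction), and no other tool was run. At an unadjusted p of 0.05 the count for that pair was also 0. ARG1 and ASL were called lower in parotid than in sublingual gland (2 of 7, where 40.6% of all tested genes were called lower in parotid), at -2.24 and -1.12 with limma adjusted p of 0.0186 and 0.0227. The same 2 were called lower in submandibular than in sublingual gland (27.2% of all tested genes), at -2.24 and -1.15 with 0.0259 and 0.0269. Neither count stands above the share of all genes by enough to be a result about the members. Without the sublingual libraries of animals 1 and 4, the ARG1 differences were -0.36 and -0.35 and the ASL differences -0.70 and -0.74, and none of these 4 was called. Under trimmed-mean scaling none of them was called either, with ARG1 at -1.38 and -1.50 and ASL at -0.19 and -0.38.

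The balance of the arginases followed from these levels. ARG2 made up 0.28% to 0.934% of the summed ARG1 and ARG2 TPM in liver and 18.5% to 51.2% in pancreas. In parotid it made up 50.9% to 80.5%, and in submandibular gland 69.0% to 86.5% in 5 animals and 39.3% in animal 4. In sublingual gland it was 71.9% to 85.0% in 4 animals, and 4.16% and 1.43% in animals 1 and 4. Liver was the tissue where ARG1 was nearly the whole of the arginase transcript in all 6 animals.

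Expressed as a share of the liver mean, the members fell into 3 levels outside liver. CPS1 (0.82% to 1.16% over the 4 tissues), OTC (0.605% to 1.04%) and NAGS (0.778% to 1.60%) were lowest, together with ARG1 in pancreas, parotid and submandibular gland (0.665% to 1.04%). ARG1 in sublingual gland was at 24.1% over all 6 libraries and at 0.769% over the 4 libraries without raised squamous genes. ASS1 (2.38% to 3.43%) and ASL (1.92% to 5.13%) were higher. ARG2 stood at 71.1% in pancreas and at 215%, 274% and 379% in parotid, submandibular and sublingual gland.

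Secreted liver proteins and other hepatocyte markers were set against the members as a share of their liver means. The median of the 16 markers was 0.856% in pancreas (0.714% to 11.8%, the highest being TTR, which islet cells also make, and the next 1.06%). It was 0.604% in parotid (0.405% to 0.705%), 0.618% in submandibular (0.425% to 0.808%) and 0.770% in sublingual gland (0.617% to 1.08%). OTC lay inside the marker range in pancreas, parotid and sublingual gland, CPS1 in sublingual gland, and ARG1 in pancreas, parotid and submandibular gland. In pancreas CPS1 (1.16%), NAGS (1.60%), ASS1 (2.57%) and ASL (3.60%) were inside the range only because of TTR, and lay above the next marker. CPS1 lay above the marker range in parotid and in submandibular gland, at 0.836% and 0.82%, and OTC in submandibular gland, at 0.843%. NAGS lay above it in all 3 glands, at 0.778%, 0.986% and 1.57%, and so did ASS1 and ASL. Whether the low values of CPS1, OTC, NAGS and ARG1 outside liver come from cells of those tissues or from liver sequence in their libraries was not tested.

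**Figure D3:**
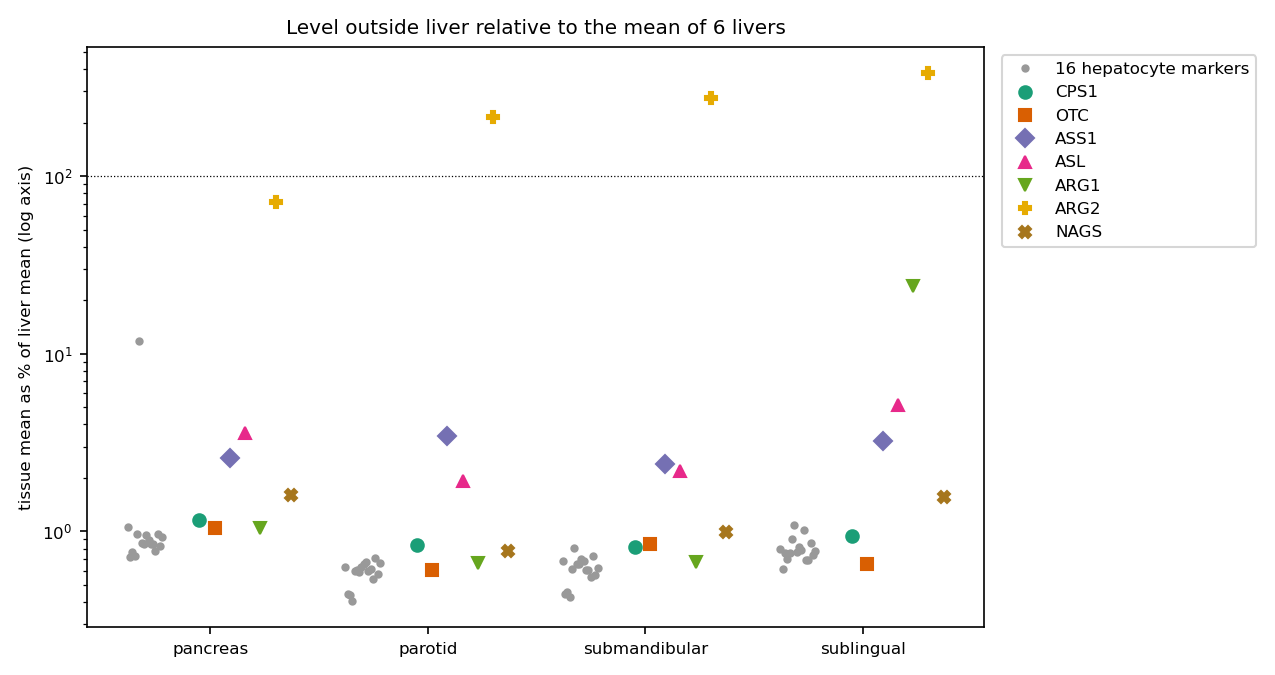
Mean of each tissue as a percent of the mean of 6 livers (log axis) for the 7 urea cycle genes (coloured symbols) and 16 hepatocyte markers (grey points); the dotted line is 100%. CPS1 and OTC lie between 0.605% and 1.16%, the marker medians between 0.604% and 0.856%, ASS1 and ASL lie above them, and ARG2 lies at 71.1% to 379%.

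By mean TPM the order in liver was ASS1 (1277 ± 573, SD, n = 6), ARG1 (730 ± 230), ASL (443 ± 236), CPS1 (175 ± 119), OTC (137 ± 88.1), NAGS (49.1 ± 23.4) and ARG2 (4.61 ± 2.32). Neighbours in this order overlapped in range except NAGS and ARG2. Within animals the order held in 6 of 6 for ASS1 over ARG1, for ASL over CPS1 and for NAGS over ARG2, in 5 of 6 for ARG1 over ASL, and in 4 of 6 for CPS1 over OTC and OTC over NAGS. Each gene's order across tissues had liver at the top, apart from ARG2, for which it ran sublingual, submandibular, parotid, liver and pancreas by mean.

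The 6 livers differed from each other by several fold. The highest value over the lowest was 7.69 for CPS1, 5.13 for ASL, 4.60 for NAGS, 4.41 for OTC, 4.07 for ARG2, 3.64 for ASS1 and 2.67 for ARG1. Animals 1 and 4 had the 2 lowest livers for CPS1 (44.4 and 41.9 TPM), OTC (58.8 and 60.6), ASS1 (638 and 500), ARG1 (599 and 385) and ARG2 (1.69 and 2.27). Over all tested genes these 2 livers were the 2 lowest for 17.8% and the 2 highest for 15.96%. NAGS did not follow: animal 1 had 75.4 TPM, close to the highest, and animal 6 had the lowest, 16.7 TPM. ASL was lowest in animals 4 (169 TPM) and 6 (309 TPM). The ratio of CPS1 to NAGS accordingly ran from 0.588 (animal 1) to 15.9 (animal 6).

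Other liver measures differed between the same animals. The median of the hepatocyte markers was 3238 and 3237 TPM in animals 1 and 4 and 4622 to 7362 TPM in the others. Their sum was lowest in animal 1 (111735 TPM), but in animal 4 (160644 TPM) it lay within the range of the others (146533 to 177477 TPM). The share of TPM from mitochondrially encoded genes was 24.7% and 21.6% in animals 1 and 4 and 10.5% to 19.6% in the others. The part of these measures in the members' liver values was not tested. Female and male livers (4 and 2 animals) overlapped in range for all 7 genes. The share of all tested genes that overlapped is not given here, so this count has no background.

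**Figure D4:**
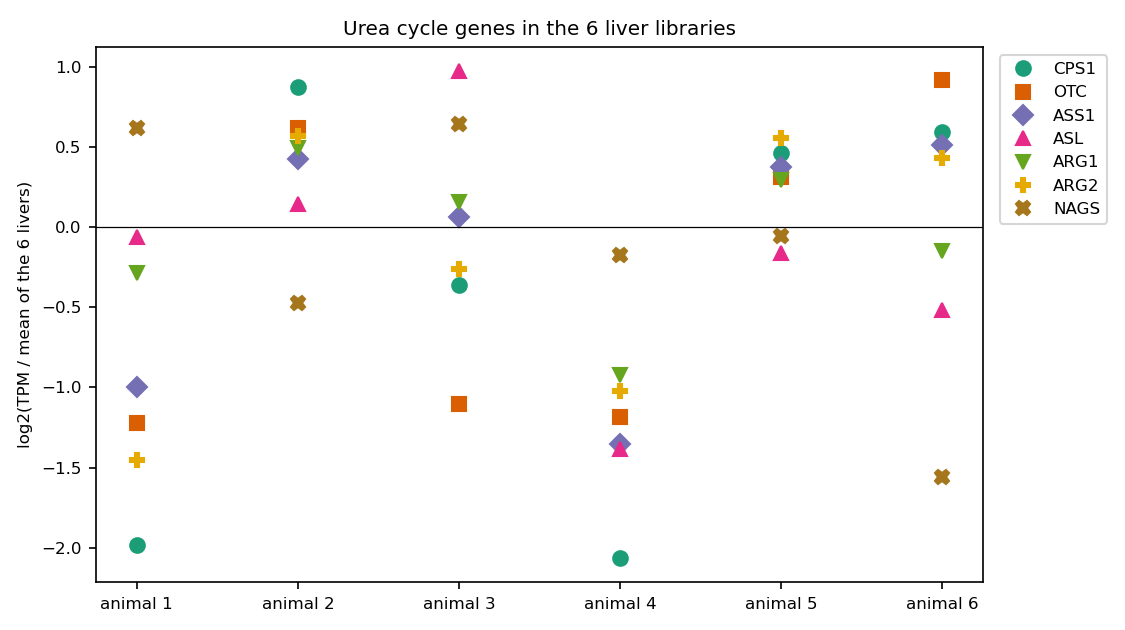
Level of each urea cycle gene in the 6 livers, as log2 of TPM over the mean of the 6 (vertical axis), by animal (horizontal axis). CPS1, OTC, ASS1, ARG1 and ARG2 are lowest in animals 1 and 4, while NAGS is lowest in animal 6 and ASL in animal 4.

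Genes whose levels followed each member most closely were found by Pearson correlation of log2(TPM + 1) over the 30 libraries, which share the split between liver and the rest. For CPS1 these were CPN2, DMGDH and APOB (r = 0.996, 0.995 and 0.994), and 225 genes had r above 0.95. OTC was followed by APOB and CPB2 (r = 0.997 each, 254 genes above 0.95), and NAGS by SLC23A3, SHBG and THPO (0.990, 0.989 and 0.988, 225 genes). For ASS1 they were TMPRSS6, AADAC and ITIH2 (0.974, 0.974 and 0.967, 127 genes) and for ASL HAAO, TM7SF2 and DCXR (0.973, 0.970 and 0.970, 67 genes). ARG1 had 6 genes above 0.95, led by IL1R2, SLCO4A1 and ASPG (0.985, 0.960 and 0.954). Like ARG1, IL1R2 was high in liver (42.3 to 108 TPM) and in the sublingual libraries of animals 1 and 4 (29.7 and 47.0 TPM) and was at most 3.54 TPM in the others. ARG2 had no gene above 0.95, and its closest were OGFRL1, LRRC26 and CRNDE (0.905, 0.883 and 0.883).

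Among the members, CPS1 and OTC followed each other most closely (r = 0.992 over 30 libraries), and ARG2 was negatively correlated with the other 6 (r from -0.37 to -0.47).

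Of 11 listed genes that bring nitrogen to the cycle, 10 passed the filter without the livers. Of these, 6 were called higher in liver than in pancreas, parotid and submandibular gland and 5 than in sublingual gland. All tested genes were called higher at shares of 23.6%, 53.4%, 45.1% and 18.7% in the same order, so the parotid and submandibular counts lie near the background. In each comparison the largest differences were those of GLS2, the liver glutaminase, and CA5A, a mitochondrial carbonic anhydrase that supplies bicarbonate to CPS1. GLS2 was 4.39, 5.89, 6.04 and 5.29 higher on the log2 scale, at 186 TPM in liver against 1.75 to 7.92 TPM elsewhere (means). CA5A was 4.31, 4.34, 4.31 and 4.21 higher, at 22.5 TPM in liver against at most 0.25 TPM, and it passed the filter only through liver, so it had to differ. Trimmed-mean scaling added 1 lower call against parotid (SLC25A12, -1.01) and 1 against submandibular gland (CA5B, -0.76). Over all tested genes the lower calls there went from 624 to 2484 and from 769 to 2844.

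Genes of arginine and ornithine use were called in both directions. Of 19 listed, 17 were tested and 16 passed the filter without the livers. Of these 16, 7 were called higher and 2 lower in liver than in pancreas (against 23.6% and 6.76% of all tested genes), 10 and 2 against parotid (53.4% and 4.61%), 10 and 2 against submandibular gland (45.1% and 5.68%), and 8 and 2 against sublingual gland (18.7% and 12.8%). The higher counts against parotid and submandibular gland and the lower count against sublingual gland lie near the background. AGMAT, agmatinase, and PRODH, proline dehydrogenase, led in all 4 (AGMAT 5.02, 4.84, 5.75 and 5.23, PRODH 4.45, 5.21, 5.31 and 4.18 on the log2 scale). PYCR1, which makes proline, was lower in liver throughout (-2.81, -3.14, -2.24 and -2.33). Beside it, SRM, spermidine synthase, was lower than in pancreas (-1.72), ALDH18A1, which makes the proline and ornithine precursor, than in parotid (-1.40) and submandibular gland (-0.98), and DDAH2, a dimethylarginine hydrolase, than in sublingual gland (-1.48). The list holds SLC25A2, a second mitochondrial ornithine carrier, which had a mean of 15.4 TPM in liver and 0.196 to 0.558 TPM elsewhere and was 3.19 to 3.57 higher in liver, having passed the filter only through liver. Over the 17 tested genes, trimmed-mean scaling reduced the higher calls from 11 to 6 for parotid and from 11 to 8 for submandibular gland, and raised the lower calls there to 3 and 5. Over all 13550 tested genes it took the higher calls from 7232 to 3400 and from 6107 to 3475. The lower calls over all genes went from 624 to 2484 and from 769 to 2844.

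Of 11 listed carriers of urea, ammonia and amino acids, 9 were tested and 7 passed the filter without the livers. Of these 7, 3 were called higher in liver than in pancreas and 4 than in each of parotid, submandibular and sublingual gland, where 23.6%, 53.4%, 45.1% and 18.7% of all tested genes were. The parotid and submandibular counts are near the background. AQP9, a channel for glycerol and urea, was 5.53, 5.75, 5.81 and 5.72 higher, and SLC38A4, an amino acid transporter, was 4.97, 5.64, 5.69 and 5.50 higher. SLC7A1, a transporter of arginine and other cationic amino acids, was called lower in liver (-1.92, -1.08, -0.94 and -1.19). Under trimmed-mean scaling SLC3A2, an amino acid transporter subunit, was also called lower in liver than in parotid (-0.88) and submandibular gland (-1.34). SLC7A2, of the same family as SLC7A1, was higher in liver (2.48, 3.10, 3.29 and 2.76) and passed the filter only through liver.

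Of 8 regulators of the cycle, 6 passed the filter without the livers, and 5, 6, 5 and 2 of these were called higher in liver than in pancreas, parotid, submandibular and sublingual gland. The shares of all tested genes were 23.6%, 53.4%, 45.1% and 18.7%, so the sublingual count is near the background. GCGR, the glucagon receptor, was 5.20, 5.93, 5.86 and 5.70 higher, and HNF4A, a hepatocyte transcription factor, was 4.13, 5.08, 5.09 and 5.16 higher, and both passed the filter only through liver. None of the 8 was called lower. Under trimmed-mean scaling the higher calls among all 8 went from 7, 8, 7 and 4 to 7, 5, 5 and 5, and SIRT3, SIRT5 and NR3C1 were then not called against parotid. The higher calls among all 13550 tested genes went from 3198, 7232, 6107 and 2540 to 2835, 3400, 3475 and 3194.

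**Figure D5:**
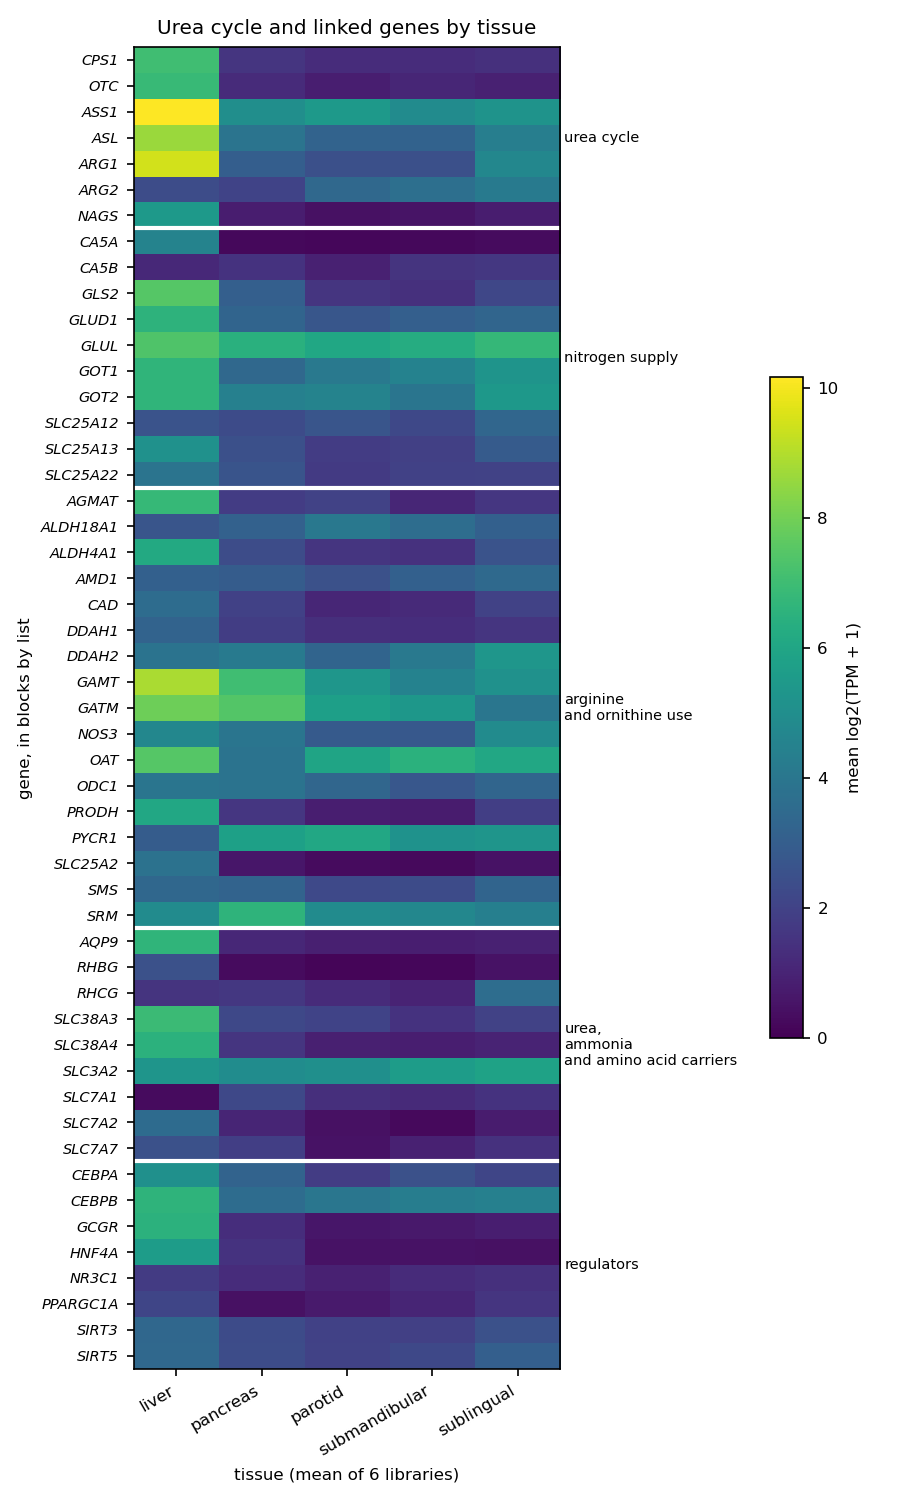
Mean log2(TPM + 1) over 6 libraries (colour) of the urea cycle genes and tested genes of 4 linked lists (rows, in blocks), by tissue (columns). Liver is brightest for 6 of the 7 urea cycle genes and for GLS2, CA5A, AGMAT, PRODH, AQP9, GCGR and HNF4A, while PYCR1, SLC7A1 and ARG2 are darker in liver than in the glands.

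Between glands and pancreas a smaller number of the linked genes was called. OAT, ornithine aminotransferase, was higher than in pancreas in parotid (2.05), submandibular (2.60) and sublingual gland (2.21), with limma adjusted p of 0.0029, 0.000306 and 0.00121. GAMT (-1.71, -2.55 and -1.91) and GATM (-1.69, -2.04 and -3.42), the enzymes of creatine synthesis from arginine, and SRM (-1.72, -1.92 and -2.25) were lower. GLS2 was also lower in each gland than in pancreas (-1.50, -1.65 and -0.90). The arginine transporter SLC7A1 (-0.84 and -0.98) and its relative SLC7A7 (-1.38 and -0.95) were lower in parotid and submandibular gland, and GCGR in parotid (-0.73). Under trimmed-mean scaling GATM lost its call in parotid and submandibular gland (-1.04 and -1.52) and GAMT in parotid (-1.06). SLC7A1 lost it in both (-0.44 and -0.63) and GCGR in parotid (-0.48). GOT1, an aspartate aminotransferase, and PPARGC1A, a coactivator, were higher in sublingual gland (1.83 and 1.11), and HNF4A was lower in each gland (-0.96, -0.97 and -1.03). The same scaling also added calls. GOT1 was then called higher in all 3 glands (1.31, 1.59 and 1.52) and PPARGC1A in submandibular and sublingual gland (0.95 and 0.84). SLC7A1 (-1.02), SLC7A7 (-0.62) and GCGR (-0.62) were then called lower in sublingual gland.

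Over the 45 tested genes of the 4 lists, 10 were called lower than in pancreas in parotid, 8 in submandibular and 5 in sublingual gland, where 13.6%, 7.46% and 3.51% of all tested genes were. The calls higher in the gland were 2, 1 and 3, against 2.24%, 2.25% and 10.4%. Under trimmed-mean scaling the lower calls numbered 5, 6 and 12 and the higher calls 3, 4 and 3. Of all 13550 tested genes, 1273, 1104 and 1432 were then called lower and 993, 1066 and 1484 higher. Without the pancreas and submandibular libraries of animal 4, the lower calls were 10, 16 and 8 and the higher calls 2, 1 and 7. Without the pancreas library of animal 3 and the sublingual library of animal 5, the lower calls were 6, 7 and 4 and the higher calls 1, 1 and 2. Shares of all tested genes are not given here for the fits that leave out libraries, so these counts have no background beside them. GATM, SLC7A1 and GCGR in parotid, SLC7A7 in submandibular gland, and GLS2, GOT1 and PPARGC1A in sublingual gland were not called in that last fit.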

How the data were processed

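The deposited file was 1 table of TPM made by the authors, with gene symbols in rows and 30 libraries in columns; its name points to kallisto. Per the submitters' processing notes FastQC, MultiQC, cutadapt, HISAT2, kallisto, SAMtools, featureCounts and DESeq2 were used, with no versions or roles. The transcriptome, genome build, gene summing and treatment of reads shared by near-identical copies (ASS1 has pseudogenes) are not given in the sources used here, so no coordinates are printed. Libraries were grouped by the labels' tissue.

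log2(TPM + 1) was fitted with limma 3.58.1 (R 4.3.3), with tissue and animal as terms and a variance trend, for the 13550 genes that reached 1 TPM in 6 or more libraries. Two-sided p-values were adjusted per comparison after Benjamini and Hochberg, and the procedure was tested on simulated data. Pairing comes from the shared animal: deviations from tissue means correlated by 0.161 within and -0.019 between animals. Summaries used Python 3.11.15 and pandas 2.3.3. Trimmed-mean scaling drops 30% of log ratios and 5% of mean levels at each end. Alternatives were an unblocked fit, 12-library fits, that scaling, a pseudocount of 0.1, no filter, a filter of 5 TPM, no trend, and leaving out animals or libraries. The 7 genes passed the filter, NAGS only through liver. Named linked genes are those with the 2 largest called differences each way per list and comparison; SLC25A2, SLC7A2, SLC3A2 and RHCG were named after their values were seen. The members and lists were chosen with earlier results of these data known. Some results that fall under the naming rules are not reported here.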

Additional observations from a re-analysis of the deposited data

Results flagged for a closer look

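ASL in parotid stood out in animal 6, the library with high muscle markers, at 6.56 TPM where the nearest of the others had 8.15 TPM. ASL in submandibular gland stood out in animal 4, the library low in salivary markers, at 25.1 TPM where the nearest had 7.63 TPM. These are 2 of 35 sets of 6 libraries in which 1 value lay far from the rest, where chance gives about 1.75.

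In 2 of 70 comparisons of the sexes, all females moved one way and both males the other. The number that chance gives is not set beside this count, so it is not a result about sex. For ASS1 in submandibular gland against pancreas, the mean log2 difference was -0.59 in the 4 females and 0.79 in the 2 males, a gap of -1.39. For ARG1 in sublingual gland against pancreas, it was 2.76 in females and -0.50 in males, a gap of 3.26, with animals 1 and 4 among the females. Neither gap between the sexes was tested.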

How the results depend on the processing

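The 6 genes higher in liver were called in 408 of 408 alternative fits (log2 3.57 to 7.30, largest limma adjusted p 0.00965). NAGS is among them, and as it passed the filter only through liver, its calls add no support. The ARG2 differences of glands from liver and pancreas were called in 102 of 102 (0.94 to 2.37 in size, largest limma adjusted p 0.023). Over all 644 alternatives of single genes, 618 kept direction and call, 24 lost the call and 2 reversed: ARG2 in liver against pancreas with trimmed-mean scaling (-0.037), and ARG1 in sublingual gland against pancreas without the sublingual libraries of animals 1 and 4 (-0.21), an alternative chosen after seeing the data. Counts of members called for parotid against sublingual gland (2) became 1 with only the 12 libraries of the pair, 1 with trimmed-mean scaling (ASS1, higher in parotid by 1.19), 1 without the sublingual libraries of animals 1 and 4, and 0 to 3 when leaving out each animal in turn. For submandibular against sublingual gland (2) they became 0, 0 and 0 in these settings and 0 to 2 when leaving out each animal. For submandibular against pancreas (1) leaving out each animal gave 1 to 2. Without the replicate block the counts of calls, NAGS included, stayed 6, 7, 7 and 7 for liver against pancreas, parotid, submandibular and sublingual gland. They stayed 1 for each gland against pancreas, 0 for parotid against submandibular gland and 2 for each against sublingual gland. Leaving out the pancreas library of animal 3 and the sublingual library of animal 5, also chosen after seeing the data, changed none of these counts. The cause of these changes was not tested. With the depth unknown, no detection limit can be set for the values of OTC and NAGS near or under 1 TPM.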
